A study of Mus musculus with 14 samples.

Results

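Neurotrophins and their receptors were followed in granule neuron progenitors (GNPs) of the mouse cerebellum as 6 genes, taken by name from the 41381 genes of the expression table. They were the ligands Ntf3 and Bdnf and the receptors Ntrk3, Ntrk2, Ngfr and Sort1. Their levels were read in all 14 RNA sequencing libraries, of which the labels put 5 in WT, 5 in Het and 4 in Hom, as TPM (a gene's share of all transcripts, corrected for transcript length). GNPs had been purified on a Percoll gradient from cerebella at postnatal day 7. The Het group carried Atoh1-Cre::Chd7 f/+ and the Hom group Atoh1-Cre::Chd7 f/f, so that Cre from an Atoh1 driver, active in the granule cell lineage, was used to remove the floxed Chd7 alleles. WT libraries were labelled either as Chd7 wild type or as Atoh1-Cre negative, and for the latter the labels give no Chd7 allele. For a PCR assay of GNPs of the same age the study names its WT as Chd7 f/f. The strain was spelled C56Bl6/J in the first deposit and C57BL/6 in the second, and sexes were not separated. The study saw Chd7 protein remain in the posterior lobe, which it ascribed, as probable, to weaker recombination by this Cre line. The libraries came from 2 sequencing batches, with WT 1 to 3, Het 1 to 3 and Hom 1 and 2 in batch 1, and the other 6 libraries in batch 2. The labels do not say how many animals went into a library, so p-values measure the spread between these samples.

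Neurotrophins are secreted growth factors that are made as larger precursors and cut to the mature form. Mature NT-3, the product of Ntf3, acts mainly through the receptor tyrosine kinase TrkC (Ntrk3), and mature BDNF through TrkB (Ntrk2), whereas the p75 neurotrophin receptor (Ngfr) binds all of them and, together with sortilin (Sort1), binds their precursors. In the postnatal cerebellum BDNF and TrkB are known for the migration of granule cells out of the external granule layer, NT-3 and TrkC for folding and granule cell survival, and p75 is known as a protein of the dividing progenitors.

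Chd7, the targeted gene, was read first in every library. It reached 120.81, 151.68, 132.41, 203.25 and 272.06 TPM in WT 1 to 5, 165.77, 181.30, 150.35, 149.36 and 136.77 TPM in Het 1 to 5, and 172.49, 185.39, 149.87 and 125.63 TPM in Hom 1 to 4. In batch 1 every library labelled Hom lay above every WT library, and in batch 2 every one lay below. TPM of the whole gene also counts transcripts that lack only the floxed part, so these values do not check the deletion. The study checked it otherwise. By PCR it reported significantly fewer Chd7 transcripts in Het and Hom GNPs than in WT. By immunostaining it reported loss of Chd7 protein in granule cells of homozygous mutants. In the linear model on log2(TPM + 1) with genotype and batch (limma, n = 5 WT, 5 Het, 4 Hom), Chd7 differed by -0.11 between Hom and WT (SE 0.20, adjusted p = 0.862). Directions below therefore refer to the libraries labelled Hom, Het and WT. All 9 GNP markers, Atoh1, Pax6 and Barhl1 among them, passed the filter on low values, with summed levels of 2440 to 3560 TPM in WT and 2690 to 3030 TPM in Hom. Pairs of libraries correlated across genes with r between 0.951 and 0.983, and the depth of single libraries is unknown.

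Ntrk3, which encodes the NT-3 receptor TrkC, was higher in every library labelled Hom than in every WT library. It stood at 20.37, 22.21, 18.56, 19.91 and 21.92 TPM in WT 1 to 5, and at 30.94, 37.34, 36.06 and 49.94 TPM in Hom 1 to 4. The Het libraries held 21.75, 25.32, 22.02, 20.31 and 33.70 TPM. Het 1, 3 and 4 lay inside the WT range, Het 2 just above it, and Het 5 inside the Hom range. Hom exceeded WT by 0.84 on the log2 scale (SE 0.14, 95% interval 0.54 to 1.14, limma adjusted p = 0.00518), a 1.79-fold change of TPM + 1. Of the 5 members that passed the filter on low values (1 TPM or more in 4 or more libraries), Ntrk3 was the 1 called at an adjusted p under 0.05 in Hom against WT, beside 1.27% of the 17325 tested genes called higher and 1.41% called lower. The Hom range also cleared the WT range in each batch taken alone, with a change of 0.71 in batch 1 (adjusted p = 0.0538) and 0.99 in batch 2 (adjusted p = 0.222), and the difference of the Hom effect between the batches was 0.27 (95% interval -0.37 to 0.92). The call was kept in 25 of 27 alternatives, the exceptions being the batches taken alone.

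Het against WT gave 0.23 for Ntrk3 (95% interval -0.06 to 0.51, limma adjusted p = 0.842), and Hom against Het gave 0.61 (95% interval 0.31 to 0.91, adjusted p = 0.0979). With Het 5 left out, Hom against Het rose to 0.72 with an adjusted p of 0.0419. No member was called in Het against WT or in Hom against Het over all libraries, beside 0.00577% and 0.427% of all tested genes, and at an unadjusted limma p under 0.05 there were 0 and 2 members (Ntrk3 and Ntf3).

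Levels of cell type markers also differed between Hom and WT. Over all 17325 tested genes, 1112 were lower and 1475 higher in Hom at an unadjusted limma p under 0.05. In bulk RNA, fewer cells of a type and less RNA per cell cannot be told apart. Of 8 endothelial markers 7 were above 0 in Hom against WT and 0 were called by limma (5 at an unadjusted p under 0.05), with a median change of 1.55 and summed levels of 32.1 to 214 TPM in WT, 22.1 to 476 TPM in Het and 113 to 355 TPM in Hom. Within WT these sums were 32.1 to 42.2 TPM in batch 1 and 121 to 214 TPM in batch 2. Of 10 markers of Bergmann glia and astrocytes 9 were below 0 and 0 were called (6 at an unadjusted p under 0.05), with a median of -0.84 and sums of 423 to 1950 TPM in WT, 619 to 1210 TPM in Het and 358 to 750 TPM in Hom. Markers of granule neurons had 3 of 9 tested called lower and 1 higher, a median of -0.38 and sums of 2030 to 2330 TPM in WT, 1960 to 2230 TPM in Het and 1690 to 1960 TPM in Hom. Purkinje cell markers had 2 of 9 called lower, 0 higher and a median of -0.45. Their sums were 236 to 350 TPM in WT, 201 to 254 TPM in Het and 169 to 176 TPM in Hom. These sums rest largely on Lhx1, with a median of 142 TPM over all libraries, followed by Pcp4 at 22.8 TPM. All 5 red blood cell markers were below 0 and 0 were called by limma (4 at an unadjusted p under 0.05), with a median of -0.80 and sums of 296 to 715 TPM in WT, 141 to 364 TPM in Het and 188 to 350 TPM in Hom. Of 9 GNP markers 1 was called higher and 0 lower, with a median of 0.12. Unipolar brush cell markers had 1 of 3 tested called lower and 0 higher, with a median of 0.28. Markers of inhibitory interneurons, the oligodendrocyte lineage, microglia, mural cells and meninges had 0 called. Among them, 2 oligodendrocyte markers had an unadjusted limma p under 0.05. No marker of these lists was at 0 in all libraries. Their part in the Ntrk3 difference was not tested.

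Ntrk3 spans chr7:78175959-78738012 on the minus strand (GRCm38) and has 20 annotated transcripts, which the gene-level TPM pools. The coding ends are shown because the receptor with a kinase and the truncated receptor without one cannot be told apart in the values above. Ntrk3-201, with 17 coding exons and 2475 coding bases before the stop codon, and the truncated Ntrk3-202, with 14 and 1836, share their first 1585 coding bases. The last 30 shared bases are in lower case and the 251 bases that follow in each transcript in capitals, read from the reference transcripts across exon joins (chr7:78250754-78260414 and chr7:78302632-78304426).
Ntrk3-201: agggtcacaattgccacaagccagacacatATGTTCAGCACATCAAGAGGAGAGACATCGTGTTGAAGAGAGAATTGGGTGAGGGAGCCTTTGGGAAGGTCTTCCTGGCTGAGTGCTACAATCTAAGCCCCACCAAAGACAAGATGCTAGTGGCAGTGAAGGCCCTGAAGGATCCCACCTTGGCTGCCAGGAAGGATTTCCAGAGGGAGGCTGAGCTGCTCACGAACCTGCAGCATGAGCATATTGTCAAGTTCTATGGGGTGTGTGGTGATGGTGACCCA
Ntrk3-202: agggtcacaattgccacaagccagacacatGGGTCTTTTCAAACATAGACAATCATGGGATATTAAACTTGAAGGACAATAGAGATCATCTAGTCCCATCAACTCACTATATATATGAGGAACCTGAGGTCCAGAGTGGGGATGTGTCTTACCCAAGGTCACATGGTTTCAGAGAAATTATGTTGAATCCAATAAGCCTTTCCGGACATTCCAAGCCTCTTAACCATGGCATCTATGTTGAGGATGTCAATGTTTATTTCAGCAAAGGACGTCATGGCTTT
Among the kinase forms, Ntrk3-206 carries 117 more coding bases than Ntrk3-201, inserted after coding base 2133 (in capitals, chr7:78204103-78229561 across a join). The last 42 of them are the whole insert of Ntrk3-205.
Ntrk3-206: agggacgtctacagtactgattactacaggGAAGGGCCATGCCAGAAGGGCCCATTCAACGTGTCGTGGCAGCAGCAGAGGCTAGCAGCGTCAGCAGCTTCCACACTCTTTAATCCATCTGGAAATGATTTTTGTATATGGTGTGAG

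By the distance between profiles over the 14 libraries (log2(TPM + 1) with batch means removed, genes with a mean TPM of at least 5), the genes most like Ntrk3 were Nalcn, which encodes a sodium leak channel, with a root mean square difference of 0.10, and Mical2, which encodes an actin-oxidizing enzyme, and BC034090, both at 0.15. Nalcn averaged 4.77 TPM in WT, 5.87 in Het and 10 in Hom.

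**Figure D1:**
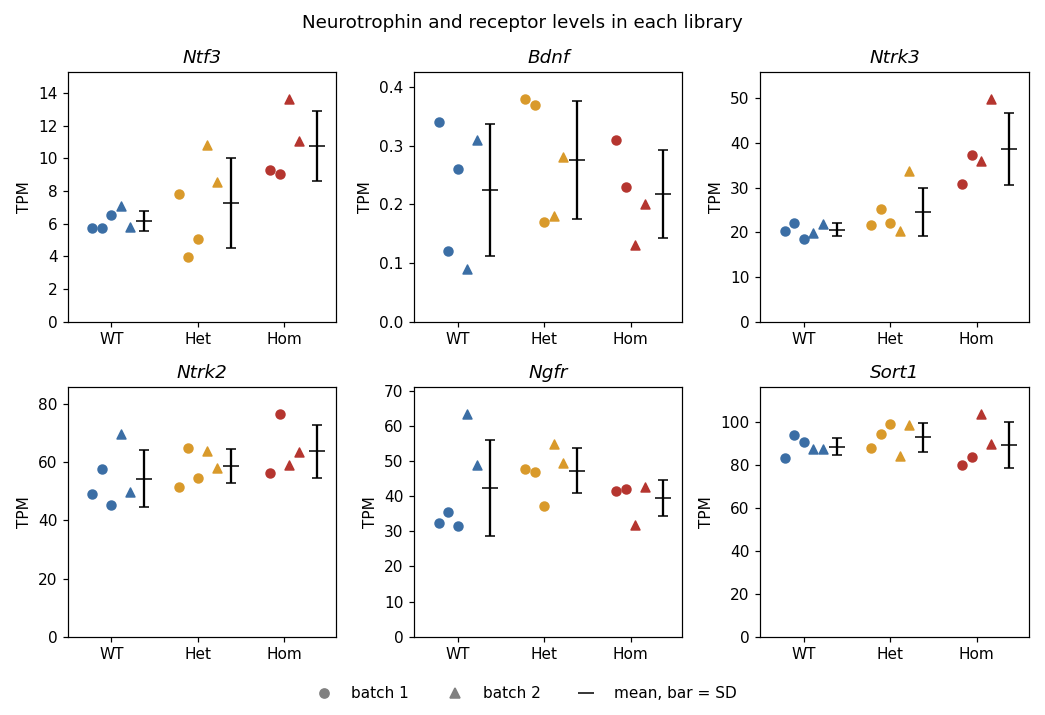
TPM of the 6 genes in each library by genotype, with circles for batch 1, triangles for batch 2, and a bar for the mean ± SD of the group. For Ntrk3 the 4 Hom libraries (30.94 to 49.94 TPM) and for Ntf3 the 4 Hom libraries (9.04 to 13.66 TPM) lie above all 5 WT libraries, while the groups overlap for the other 4 genes.

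Ntf3, which encodes the TrkC ligand NT-3, had the same order of groups but did not pass the threshold over all genes. WT 1 to 5 held 5.77, 5.74, 6.55, 7.07 and 5.78 TPM, a narrow range. Het 1 to 5 held 7.82, 3.99, 5.05, 10.82 and 8.56 TPM, so that 2 of the 5 lay below every WT library and 3 above. Hom 1 to 4 held 9.31, 9.04, 13.66 and 11.09 TPM, all above the WT range in both batches. The difference between Hom and WT was 0.66 (SE 0.18, 95% interval 0.28 to 1.04, limma adjusted p = 0.0719). It passed the threshold in only 2 of 27 alternatives. These were the fit with only Hom and WT (0.68, adjusted p = 0.0359) and that without Het 2, the lowest library (0.67, adjusted p = 0.03). The highest adjusted p among the alternatives was 0.352, in batch 1 alone. Hom ranges wholly above WT were found for Ntrk3 and Ntf3 among the members and for 2.91% of all tested genes.

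A Kruskal-Wallis test across genotypes was computed exactly from all 252252 arrangements of the libraries after the batch term was removed. The arrangements were not kept within batches, so its p-values do not account for the estimation of the batch term. In this exact test Ntrk3 gave p = 0.00344 and Ntf3 p = 0.00757, adjusted over all genes to 0.138 and 0.195. At an unadjusted p under 0.01, 2.42% of all genes were called with Hom above WT. Het against WT was 0.13 for Ntf3 (95% interval -0.22 to 0.49) and Hom against Het 0.53 (95% interval 0.14 to 0.91, limma adjusted p = 0.442). Ntf3 was also 0.40 higher in batch 2 than in batch 1 (adjusted p = 0.0837), a contrast in which 0 members were called by limma (2, Ntf3 and Ngfr, at an unadjusted p under 0.05) and 13.5% of all genes were. The marker values given for Ntrk3 apply here too, and their part was not tested.

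Ntf3 lies at chr6:126101412-126166910 on the minus strand (GRCm38). RefSeq gives 2 promoter windows for it, and the bases of each that lie upstream of the annotated exons are shown, since Ntf3 was the ligand with measurable levels. Capitals mark letters that match CANNTG (E-box), GGGCGG (GC-box), TATAAA or CCAAT on either strand. The first stretch is chr6:126166911-126166994 and the second chr6:126164961-126165210.
Ntf3 first start: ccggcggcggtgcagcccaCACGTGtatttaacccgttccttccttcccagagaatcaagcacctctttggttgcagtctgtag
Ntf3 second start: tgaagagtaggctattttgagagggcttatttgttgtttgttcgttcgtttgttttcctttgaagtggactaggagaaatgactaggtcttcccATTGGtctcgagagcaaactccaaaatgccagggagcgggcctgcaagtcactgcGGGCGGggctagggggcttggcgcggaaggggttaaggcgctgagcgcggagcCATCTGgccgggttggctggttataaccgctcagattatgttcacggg
The first stretch, of 84 bases, holds 1 E-box and no other motif. The second, of 250 bases, holds 1 E-box, 1 GC-box and 1 CCAAT match, and neither holds TATAAA. The whole windows of 300 bases reach into the exons. The first of them holds 2 E-boxes and 1 GC-box, and the second 1 E-box, 2 GC-boxes and 1 CCAAT match. Over all 32851 RefSeq windows of 300 bases, 72.3% held CANNTG, 35.7% GGGCGG, 37.4% CCAAT and 13.6% TATAAA, so these matches are common and describe letters, not sites. The profiles most like Ntf3 were those of Sh3bgrl (difference 0.20), Adcy7 and Gm15443 (both 0.21).

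Bdnf, which encodes the ligand of TrkB, was near 0 in all groups. WT 1 to 5 held 0.34, 0.12, 0.26, 0.09 and 0.31 TPM, Het 1 to 5 held 0.38, 0.37, 0.17, 0.18 and 0.28 TPM, and Hom 1 to 4 held 0.31, 0.23, 0.13 and 0.20 TPM. The groups overlapped throughout, no library reached the filter of 1 TPM, and no change in Bdnf was measurable at these levels. Among 24470 genes tested without that filter, Bdnf differed by 0.00 between Hom and WT (SE 0.08, limma adjusted p = 0.992). Bdnf (chr2:109674700-109727007, plus strand) shares 896 exonic bases with Gm45346 on the other strand, and the values were computed without strand, so reads of the shared bases cannot be told apart.

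Ntrk2, which encodes TrkB, was the second most abundant of the 6. It stood at 48.96, 57.75, 45.49, 69.90 and 49.64 TPM in WT 1 to 5, at 51.41, 64.95, 54.61, 64.02 and 58.15 TPM in Het 1 to 5, and at 56.30, 76.82, 58.94 and 63.47 TPM in Hom 1 to 4. The 3 ranges overlapped in both batches. Hom against WT gave 0.23 (95% interval -0.04 to 0.50, limma adjusted p = 0.431) and Het against WT 0.12 (95% interval -0.14 to 0.37). TPM ratios of Ntrk2 to Ntrk3 were 2.65 ± 0.498 in WT (SD, n = 5), 2.46 ± 0.510 in Het (n = 5) and 1.70 ± 0.332 in Hom (n = 4), with every Hom ratio (1.27 to 2.06) below every WT ratio (2.26 to 3.51). The denominator Ntrk3 taken alone also set every Hom library apart from WT, so these ratios are no separate result.

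Ntrk2 (chr13:58806569-59133970, plus strand) also pools 2 kinds of receptor, of which the truncated one is known from astrocytes, whose marker sums are given above. Ntrk2-201 has 2463 coding bases and Ntrk2-202 has 1428, of which the first 1393 are shared. The coding end of the truncated form is only 35 bases (capitals, chr13:58932023-58932057), shown beside the same length of the kinase form (chr13:58985802-58985836), with the last 30 shared bases in lower case.
Ntrk2-201: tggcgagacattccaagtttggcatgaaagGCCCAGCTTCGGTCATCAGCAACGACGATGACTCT
Ntrk2-202: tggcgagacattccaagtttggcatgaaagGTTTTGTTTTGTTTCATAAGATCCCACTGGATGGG
Profiles close to that of Ntrk2 were Endod1 (difference 0.07) and Tm7sf3 (0.09).

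**Figure D2:**
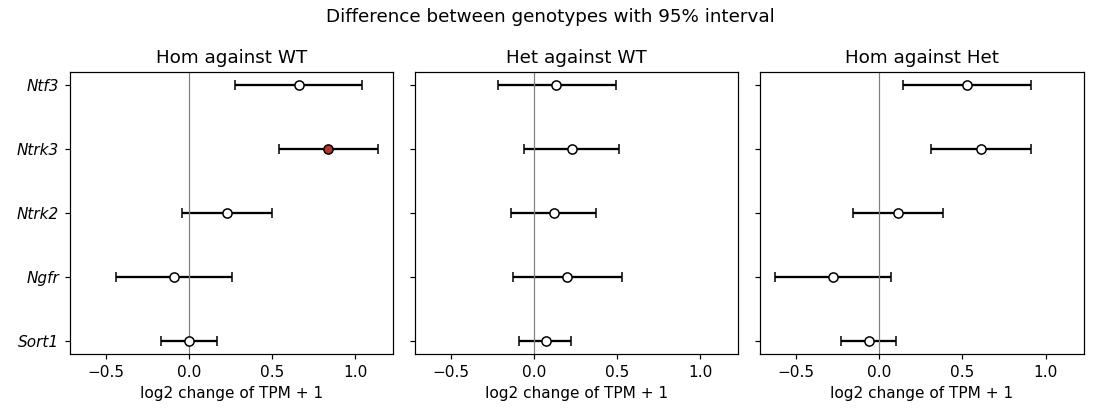
Log2 change of TPM + 1 with its 95% interval for the 5 tested members in 3 comparisons, where a filled point marks an adjusted p under 0.05. Ntrk3 in Hom against WT (0.84, interval 0.54 to 1.14) is the filled point, and every Het against WT interval includes 0.

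Ngfr, which encodes p75, did not differ between genotypes over all libraries, but the libraries of the 2 batches went opposite ways. WT 1 to 3 of batch 1 held 32.38, 35.51 and 31.57 TPM, Het 1 to 3 held 47.78, 46.95 and 37.27 TPM, and Hom 1 and 2 held 41.39 and 41.96 TPM. In batch 1 every mutant library thus lay above every WT library. WT 4 and 5 of batch 2 held 63.49 and 48.72 TPM, Het 4 and 5 held 54.82 and 49.33 TPM, and Hom 3 and 4 held 31.72 and 42.61 TPM. In batch 2 both Hom libraries lay below both WT and both Het libraries.

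Over both batches Ngfr differed by -0.09 between Hom and WT (95% interval -0.44 to 0.26, limma adjusted p = 0.867), with 0.32 in batch 1 alone and -0.58 in batch 2 alone. The interaction term, which tests whether the Hom effect differed between the batches, was -0.91 (SE 0.23, 95% interval -1.40 to -0.41, adjusted p = 0.132), and for the Het effect it was -0.49 (adjusted p = 0.53). No member passed the threshold in either term, beside 0.0115% and 0.00577% of all genes. Chd7 itself showed the same reversal (-1.18, adjusted p = 0.127). It passed the threshold in only 1 of 22 alternatives, without WT 4 (-1.39, adjusted p = 0.028). In addition, 8.05% of all genes had Hom and WT ranges apart in both batches and in opposite directions. The batch of a library and any difference in how its cells were prepared cannot be told apart. Marker sums of several lists differed between the batches in WT. Those of GNPs were 2440 to 2540 TPM in batch 1 and 3310 to 3560 TPM in batch 2. Sums of granule neuron, inhibitory interneuron, unipolar brush cell and endothelial markers were also higher in batch 2. Sums of Purkinje cell markers and of Bergmann glia and astrocyte markers were lower. In Hom the GNP sums were 2690 to 2710 and 2800 to 3030 TPM, where Ngfr averaged 41.7 and 37.2 TPM. The part of these markers was not tested. Profiles closest to Ngfr were Grm2 (difference 0.12), Ccdc149 (0.13) and Ankrd13a (0.14). Ngfr lies at chr11:95568818-95587735 on the minus strand.

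**Figure D3:**
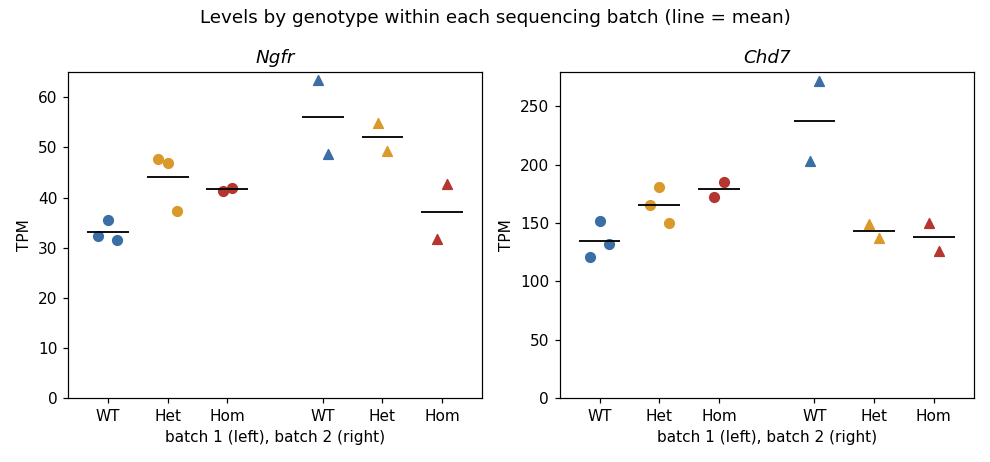
TPM of Ngfr and of Chd7 by genotype in batch 1 (circles) and batch 2 (triangles), with a line at each mean. Ngfr in WT averages 33.2 TPM in batch 1 and 56.1 TPM in batch 2, against 41.7 and 37.2 TPM in Hom, and Chd7 crosses over likewise.

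Sort1, which encodes the sorting receptor sortilin, was the most abundant and the steadiest member. It stood at 83.30, 93.99, 90.93, 87.37 and 87.68 TPM in WT 1 to 5, at 87.93, 94.43, 99.22, 84.12 and 98.85 TPM in Het 1 to 5, and at 79.82, 83.97, 104.06 and 89.71 TPM in Hom 1 to 4. All 3 ranges overlapped over both batches together. In batch 1 both Hom libraries lay below all Het libraries, and in batch 2 both lay above both WT libraries. Hom against WT was -0.12 in batch 1 alone and 0.14 in batch 2 alone, and the interaction term was 0.26 (95% interval -0.04 to 0.57, limma adjusted p = 0.357). Over all libraries Hom against WT gave 0.00 with a 95% interval of -0.17 to 0.17, and Het against WT 0.07 with an interval of -0.09 to 0.22. Sort1 (chr3:108284082-108361511, plus strand) shares 338 exonic bases with Gm12523 on the other strand, so reads of the shared bases cannot be told apart.

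In WT the levels ran from Sort1 (88.7 ± 4.03 TPM, SD, n = 5) through Ntrk2 (54.3 ± 9.79), Ngfr (42.3 ± 13.7), Ntrk3 (20.6 ± 1.5) and Ntf3 (6.18 ± 0.602) to Bdnf (0.224 ± 0.113). Sort1 exceeded 86.9% of the tested genes and Ntf3 32.4%. Each step of this order held in every WT and Het library, although the ranges of the neighbours Ntrk2 and Ngfr overlapped. In Hom, Ngfr exceeded Ntrk3 in 2 of 4 libraries, with a mean ratio of 1.05 ± 0.228 (SD, n = 4) against 2.06 ± 0.683 in WT (n = 5), and those neighbours did not differ beyond their spread. Ntf3 exceeded Bdnf in all 14 libraries, by at least 10.8 times.

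Of the other 7 ligand and receptor genes of the family, 5 passed the filter and 1 was called in Hom against WT, beside 1.27% of all tested genes called higher. Sorcs2, a sortilin relative that can pair with p75, stood at 3.83, 4.72, 3.55, 5.57 and 5.56 TPM in WT 1 to 5, at 4.96, 4.81, 4.74, 4.80 and 5.90 TPM in Het 1 to 5, and at 9.29, 8.08, 7.57 and 10.70 TPM in Hom 1 to 4. Every Hom library lay above every WT and Het library. Hom ranges lay wholly above WT for 2.91% of all tested genes. Hom exceeded WT by 0.80 (SE 0.13, 95% interval 0.52 to 1.08, limma adjusted p = 0.00447) and Het by 0.69 (adjusted p = 0.0427). The difference from WT stayed below 0.05 in 26 of 27 alternatives and was 0.61 in batch 2 alone (adjusted p = 0.284), whereas the difference from Het stayed below in 9 of 27, with values of 0.62 to 0.79.

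The remaining sortilin relatives were not called. Sorcs1 averaged 4.06 TPM in WT and 3.07 in Hom (-0.33, limma adjusted p = 0.421), Sorcs3 0.930 and 1.56 TPM (0.37, adjusted p = 0.388), and Sorl1 7.14 and 7.50 TPM (0.14, adjusted p = 0.857). The ligand gene Ntf5 was below the filter, with a highest value of 0.14 TPM in any library.

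**Figure D4:**
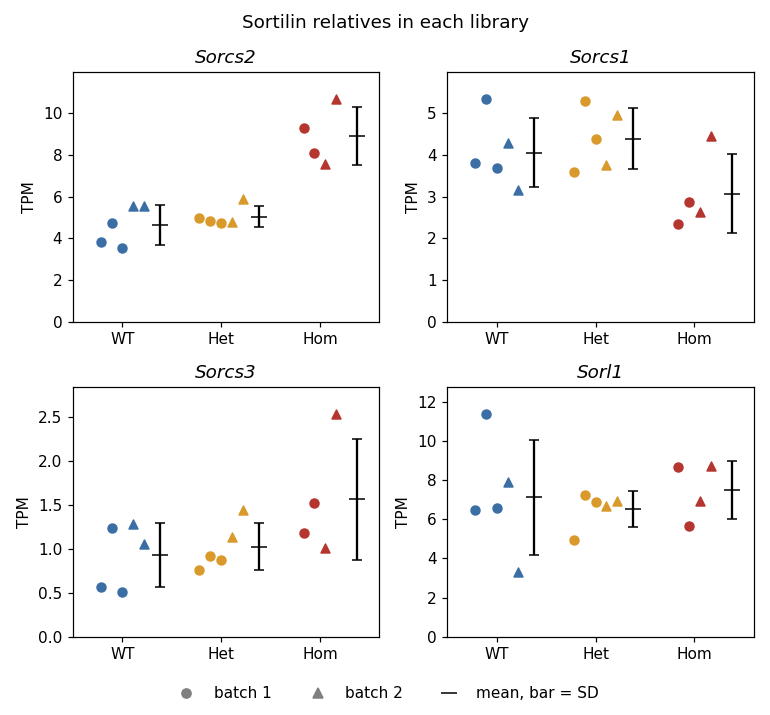
TPM of the 4 sortilin relatives in each library, drawn as for the 6 members. Sorcs2 is the gene whose Hom libraries (7.57 to 10.70 TPM) all lie above the WT (3.55 to 5.57 TPM) and Het libraries (4.74 to 5.90 TPM).

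Further genes of the pathway were read from 6 lists that include these 7, with 112 genes of which 106 passed the filter. In Hom against WT 1 rose (Sorcs2) and 6 fell, beside 1.27% and 1.41% of all genes, with a median change of -0.02 against 0.02 over all genes, and in Het against WT 0 were called by limma, with 4 at an unadjusted p under 0.05. At that cutoff 499 of all 17325 tested genes were lower and 555 higher in Het against WT.

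Genes for processing and secreting neurotrophins, protease inhibitors among them, held 5 of the 6 that fell. That list had 20 tested genes, and 1.41% of all tested genes were called lower. The list was chosen with earlier results of these data known, and the study itself reported lower Cadps2 in these GNPs. The share in the list is therefore a description. The list median was -0.12, and 18 of 20 were below 0, as were 7707 of all 17325 genes. Cadps2, a priming factor of dense-core vesicles known for BDNF and NT-3 release, ranged from 166.27 to 193.88 TPM in WT, from 108.61 to 167.16 TPM in Het and from 41.34 to 55.64 TPM in Hom. It fell by 1.89 on the log2 scale (SE 0.11, limma adjusted p = 2.5e-06), 0.269 times the WT value of TPM + 1, and it stayed below 0.05 in all 27 alternatives. In Het it gave -0.52 (adjusted p = 0.161).

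The other 4 were a granule cargo protein, proprotein convertases and a protease inhibitor. Scg2, a granin of secretory granules, fell from 49.4 ± 3.53 TPM in WT (SD, n = 5) to 28.2 ± 6.02 in Hom (n = 4), a change of -0.83 with a limma adjusted p of 0.000747. The proprotein convertases Pcsk2 and Pcsk5 fell by 0.68 (adjusted p = 0.00158) and by 0.64 (adjusted p = 0.0137), from 13.8 and 5.68 TPM to 8.35 and 3.36 TPM. Serpini1, the serine protease inhibitor neuroserpin, fell by 0.48 (adjusted p = 0.0019). In batch 2 alone, Cadps2 was the 1 pathway gene still called, and in batch 1 alone 4 pathway genes were called. The granule neuron and Purkinje cell markers given with Ntrk3 were also called lower in part, and their part in these falls was not tested.

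Of 42 genes for Trk adaptors and kinase cascades, 1 was called lower and 0 higher, a share near that over all genes (1.41% and 1.27%), and an unadjusted p under 0.05 was reached by 4 with lower and 3 with higher levels. Over all 17325 tested genes, 1112 were lower and 1475 higher at that cutoff, which also stands beside the lists that follow. The 1 called was Akt2, a kinase of the PI3K branch (-0.32, limma adjusted p = 0.0392), which went from 176 ± 12.9 TPM in WT (SD, n = 5) to 143 ± 19.7 in Hom (n = 4). That call was kept in 9 of 27 alternatives. The list median was 0.01.

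Of 19 partners and effectors of p75, 0 were called by limma and 1 had an unadjusted p under 0.05, with the widest changes in Nradd, a p75-related death domain receptor (0.21), and Zfp369 (-0.20). Of 10 genes for endocytosis and turnover 0 were called and 1 had an unadjusted p under 0.05, with Nedd4, a ubiquitin ligase, at 0.23 and Rab7, a late endosome GTPase, at -0.09. Of 11 transcription factors of Bdnf 0 were called and 3 had an unadjusted p under 0.05, with the repressor Rest at 0.29 (adjusted p = 0.31) and the activity-induced factor Npas4 at -1.74 (adjusted p = 0.304). Without WT 5 the Npas4 value was -0.71 (adjusted p = 0.181), and without WT 4 it was -2.39 (adjusted p = 0.111).

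**Figure D5:**
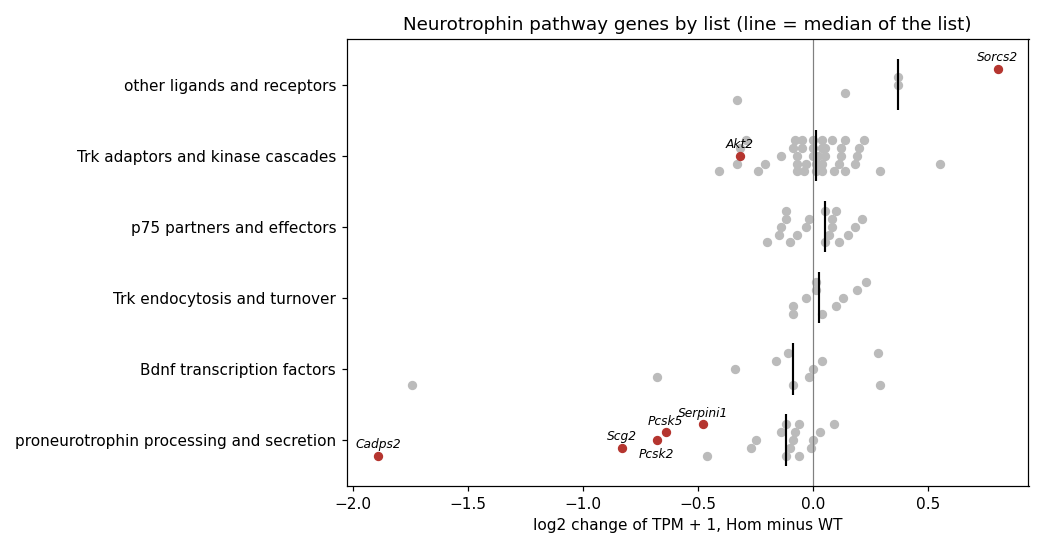
Log2 change of TPM + 1, Hom minus WT, for each tested pathway gene by list, with red points for an adjusted p under 0.05 and a line at each list's median. Sorcs2 (0.80) stands to the right, and 5 red points from Cadps2 (-1.89) to Serpini1 (-0.48) stand to the left in the processing and secretion list.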

How the data were processed

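Total RNA of the 14 GNP libraries had been sequenced as single-end 50 base reads. The authors mapped the reads to the mouse transcriptome (mm10) with Bowtie 1.0.0 and estimated expression with RSEM 1.2.15, both named in the submitters' processing notes, and deposited 1 table of gene TPM values. Each column sums to between 999999.14 and 1000000.79. TPM keeps no depth, no counting interval could be computed, and a change in abundant genes shifts the rest.

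The 5 columns headed Con were taken as WT of the same number. Het 3 was placed in batch 1, as the methods of the study state. Of 41381 genes, 17325 with 1 TPM or more in 4 or more libraries were tested as log2(TPM + 1), which understates changes of low genes, with limma 3.58.1 in R 4.3.3 (lmFit, eBayes with trend, genotype and batch, all 14 libraries, two-sided, Benjamini-Hochberg over all genes tested). Called means an adjusted p under 0.05. The fit was tested on simulated data. The exact Kruskal-Wallis test stands in for the test the study ran after ComBat. Symbols and positions came from GENCODE (GRCm38), with 40254 identifiers matched, and promoter windows from RefSeq (GRCm38), with 4 of the 6 genes matched.

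The 6 genes, the pathway lists, the 12 marker lists and the tests were chosen with earlier results of these data known. Named genes were the 6, Chd7, the other 7 ligands and receptors, each called gene of the other pathway lists (otherwise the largest rise and fall in Hom against WT), and the 3 genes with the closest profile to each tested member of more than median variation, which left out Sort1. Some genes that this rule names are not reported here. Alternatives were other pseudocounts (0.1, 0.5), filters, scalings, batch handling, library weights, a replicate block, the groups compared alone, each batch alone, and each library left out.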

Additional observations from a re-analysis of the deposited data

Results flagged for a closer look

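Of 18 groups of libraries (6 genes in 3 genotypes), 1 held a library far from the rest. Hom 3 had 31.72 TPM of Ngfr, while the other 3 Hom libraries lay between 41.39 and 42.61 TPM. Chance marks about 1 in 20 such groups. Without Hom 3, Ngfr differed by 0.067 between Hom and WT (limma adjusted p = 0.891).

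The Hom effect on Ngfr differed between batch 2 and batch 1 by -0.91, with a limma adjusted p of 0.132 over all genes for the interaction term (95% interval -1.40 to -0.41). For the Het effect the difference was -0.49 (95% interval -0.96 to -0.01, limma adjusted p = 0.53). Neither passed the adjusted threshold.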

How the results depend on the processing

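Of the values of single genes recomputed under the alternatives, 945 kept their direction and side of the threshold, 46 lost a call, 4 gained one and 29 changed sign. Ntrk3 in Hom against WT ranged from 0.71 to 0.99 (0.73 to 0.92 with 1 library left out) and Ntf3 from 0.54 to 0.85, always above 0. For each change below the cause was not tested, and single batches hold fewer libraries.

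Members called in Hom against WT, 1 as reported, were 0 in batch 1 alone, 0 in batch 2 alone, 2 with only the groups compared, and 1 to 2 with 1 library left out (2 without Het 2). The exact Kruskal-Wallis test gave 2 members at an unadjusted p under 0.01, the threshold for that test, and 0 at an adjusted p under 0.05. In Hom against Het they were 0 to 1 with 1 library left out (1 without Het 5). Pathway genes called in Hom against WT, 7 as reported, were 4 in batch 1 alone and 1 in batch 2 alone, and in Het against WT 0 to 1 with 1 library left out (1 without Het 2). Over all genes, Hom against WT gave 245 lower and 220 higher as reported, 79 and 83 in batch 1 alone, 4 and 0 in batch 2 alone, and 123 and 136 with only the groups compared.

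Residual correlations did not show that replicate numbers pair the samples, though such a check cannot exclude pairing. Same-numbered libraries had residual correlations of -0.23 to 0.26, and in 5 of 26 comparisons a library correlated best with its own number. With a replicate block 144 genes were lower and 115 higher, Ntrk3 was 0.93 (limma adjusted p = 0.0263) and Ntf3 0.57 (adjusted p = 0.255).

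In Hom against WT, Sort1 (0.00 as reported) turned to -0.027 with median-ratio scaling, -0.0039 with quantile normalization, -0.0016 with Het 3 in batch 2, -0.12 in batch 1 alone, -0.0034 with only the groups compared, -0.034 with the replicate block and -0.047 with library weights, and ranged from -0.069 to 0.053 with 1 library left out. Ngfr turned to 0.32 in batch 1 alone and 0.02 with library weights (-0.18 to 0.067 with 1 left out), Chd7 to 0.41 and 0.019 (-0.22 to 0.087), and Sorl1 to -0.15 in batch 1 alone (-0.11 to 0.30). In batch 2 alone Zfp369 turned to 0.16 and Rab7 to 0.0078. Ntf3 in Het against WT was -0.12 in batch 1 alone, and Ngfr -0.095 in batch 2 alone. In Hom against Het, Sort1 was 0.083 in batch 2 alone and Ntrk2 -0.014 to 0.16 with 1 library left out. Genes under a mean of 5 TPM gave no value with that filter, nor interaction terms in single batches. TPM keeps no read counts, so no limit from depth can be given for the lowest genes, Bdnf and Ntf5.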

Other observations

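Npas4, a transcription factor induced by neuronal activity that is known to act on Bdnf, stood at 68.52 TPM in WT 5 and at 0.55 to 3.71 TPM in the other 13 libraries. Bdnf in WT 5 was 0.31 TPM, inside the range of the other WT libraries (0.09 to 0.34 TPM).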
